A study of Mus musculus with 6 samples.

Results

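A set of 10 genes that neurons switch on after activity or stress was followed through 6 RNA libraries of mouse visual cortex. They are the MAP kinase phosphatases Dusp1, Dusp4, Dusp5 and Dusp6, and the response genes Gadd45b, Ier2, Ier5, Btg2, Atf3 and Tiparp. Their identifiers were looked up by symbol in the GENCODE annotation of GRCm38, which gave 10 of the 55487 genes in the count table. All 10 passed the filter on low counts, which left 16119 genes. The set was chosen by values of these same libraries, namely the fitted folds of the homozygous and the heterozygous mutants against wild type, among which Dusp1 stood lower in heterozygotes. The genotype folds of these genes are therefore a description. Whether any of them passed the test across all genes is given once, beside the share of all genes that did, and nothing is read from it. The comparison of the sexes played no part in the choice, and there p-values are given for single genes.

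The tissue was visual cortex of mice of the B6.CBA/Tar strain at postnatal day 28, in a line whose Mmp9em1Iimcb allele alters an untranslated region of Mmp9, which encodes a secreted protease of the extracellular matrix. Wild type (WT/WT, here WT) carried 0 mutant alleles, the heterozygote (het) 1 and the homozygote (UTRmut) 2, and no treatment is given for any group. Each genotype had 2 libraries, of which replicate 1 was a female and replicate 2 a male. Whether a library pooled animals is not stated, so the p-values below reflect just the scatter among these libraries. The genotype fits held no term for sex, so the scatter within a genotype includes any difference between the sexes. Differences between animals or pools and technical differences cannot be told apart in it.

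Total counts ran from 9500090 to 11966579 per library, and 23353 to 23845 genes had at least 1 count. Mmp9 itself had 4 to 16 counts per library, and gene counts do not show the mutated bases, so it checks no label. Ddx3y, on the Y chromosome, had 931 to 1055 counts in males and 0 to 3 in females. Xist, which is expressed from the inactive X, had 6164 to 7056 counts in females, 5 and 15 in the UTRmut and het males, and 268 in the WT male. The summed level of the 7 excitatory neuron markers was 2540 to 2970 counts scaled to library size (CPM) in the 6 libraries. Choroid plexus markers summed to 49.6 CPM in the WT male and to 2.33 to 10.3 CPM elsewhere, most of it from Ttr, the thyroid hormone carrier, at 42.1 CPM. The share of counts from mitochondrial ribosomal RNA was 8.69% in the UTRmut male and 4.95% to 6.31% in the other 5 libraries.

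As background, calcium entry and growth factor receptors activate the MAP kinases ERK, JNK and p38, which switch on immediate-early genes within minutes through factors such as CREB and SRF. Dual-specificity phosphatases are among the genes switched on, and they remove the activating phosphates from the kinases, which closes a negative feedback loop. In visual cortex, light and visual experience induce many of these genes. Dusp1 is a nuclear phosphatase that acts on p38, JNK and ERK and is also induced by stress and glucocorticoids. Dusp4 and Dusp5 are nuclear, Dusp5 with a preference for ERK, and Dusp6 is the cytoplasmic phosphatase of ERK.

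Promoter sequence was looked at because CREB and SRF sites are the known entry points of this response. Windows from 250 bases before to 50 bases after the start site (RefSeq, GRCm38.p6) were found for 8 of the 10 genes, and none was matched for Dusp4 and Ier2. The full cyclic AMP response element (CRE), TGACGTCA, lay in the windows of Dusp1 and Btg2 and in 1.79% of all 32851 windows. The first base of the element was 143 bases before the start site of Dusp1 and 166 bases before that of Btg2. Dusp5 held 2 adjacent CArG boxes, the site class of SRF, with first bases 82 and 72 bases before its start, and 1.63% of all windows held such a box. These 4 stretches are shown because they hold the only full CRE and CArG matches among the 8 windows. They are written 5' to 3' on the strand of the gene, with the matched element in capitals: Dusp1 at chr17:26508597-26508626 (minus strand), Btg2 at chr1:134079303-134079332 (minus strand), and Dusp5 at chr19:53529053-53529082 and chr19:53529063-53529092 (plus strand).
Dusp1 CRE: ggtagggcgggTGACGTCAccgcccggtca
Btg2 CRE: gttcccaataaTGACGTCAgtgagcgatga
Dusp5 first CArG box: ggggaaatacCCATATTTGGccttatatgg
Dusp5 second CArG box: ccatatttggCCTTATATGGgcactcacgt

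Both strands were searched for shorter motifs too. The CRE core TGACG, which overlaps the full element, was in the windows of Dusp1, Dusp5, Btg2 and Atf3 and in 20.8% of all windows. The dioxin response core GCGTG, where the aryl hydrocarbon receptor can bind, was in those of Dusp5, Gadd45b, Btg2, Atf3 and Tiparp and in 32.4% of all. The AP-1 motif TGANTCA was in 0 of the 8 windows and in 7.81% of all windows. These are matches of letters in a short window and were not set against any binding data.

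Per kilobase of exon, the levels of the 10 genes spanned a wide range. Dusp6 was highest, at 48.9 ± 7.02 RPKM (CPM per kilobase of exon, mean ± SD over the 6 libraries), followed by Ier5 at 33.4 ± 5.04. Dusp1 (15.9 ± 3.11), Btg2 (15.7 ± 5.16) and Tiparp (14.9 ± 4.32 RPKM) came next, and these neighbours lay within each other's spread. Gadd45b (11.1 ± 2.40), Dusp5 (9.98 ± 2.08) and Dusp4 (8.93 ± 2.29 RPKM) formed a similar run of overlapping levels. Ier2 stood at 5.75 ± 2.04 RPKM. Atf3, a transcription factor induced by stress and axon injury, was near the detection limit at 0.409 ± 0.178 RPKM, with 6 to 18 counts per library.

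**Figure D1:**
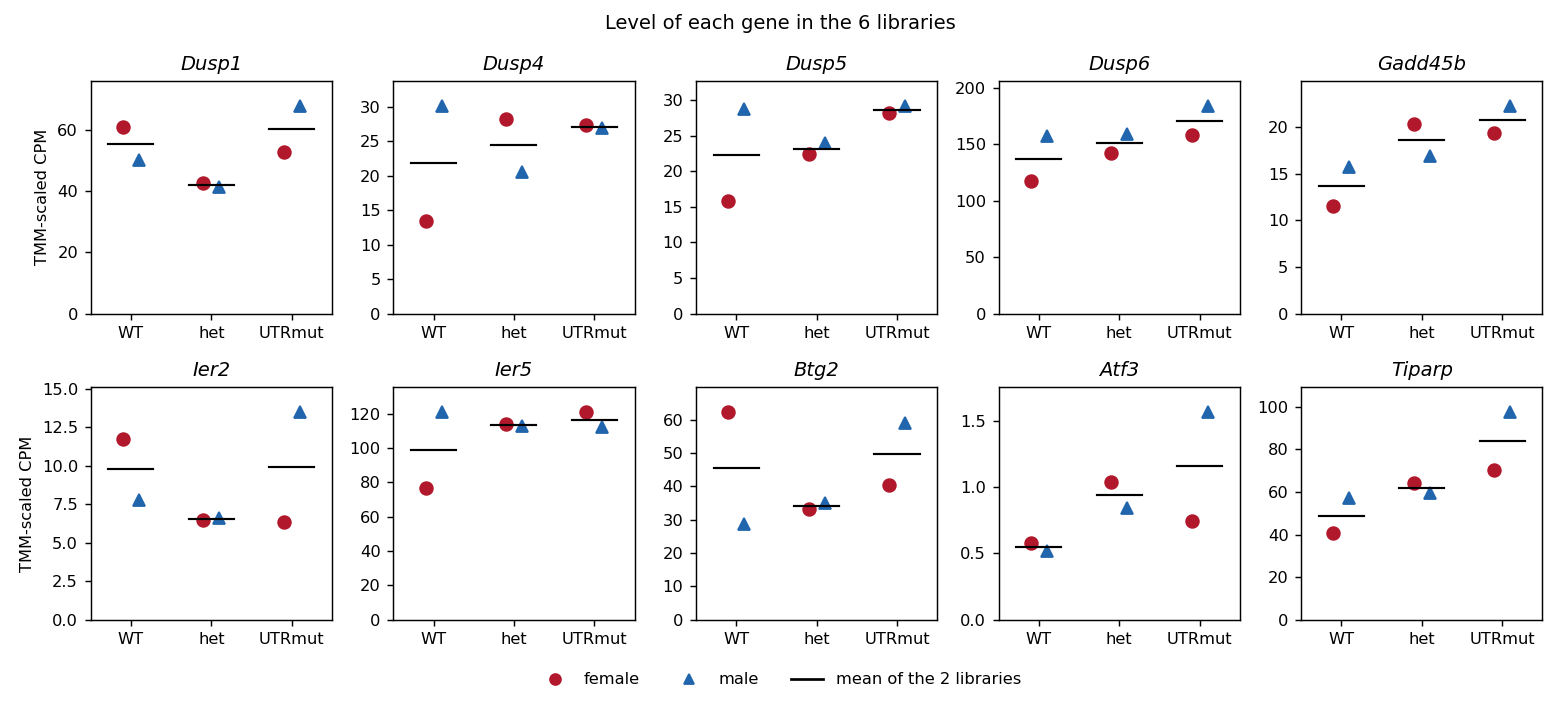
Level of each of the 10 genes by genotype, in CPM scaled by TMM (vertical axis from 0); circles are females, triangles males, and the bar is the mean of the 2 libraries. Dusp1 ran from 41.4 CPM in the het male to 67.9 CPM in the UTRmut male, and the 2 WT libraries of Btg2, Dusp4 and Ier5 stand far apart.

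Dusp1 (ENSMUSG00000024190, GRCm38 chr17:26505590-26562128, minus strand) was low in both heterozygotes. Its level was 60.9 CPM in the WT female and 50.3 in the WT male, 42.8 in the het female and 41.4 in the het male, and 52.8 in the UTRmut female and 67.9 in the UTRmut male. Both het libraries lay below all 4 others, and the WT and UTRmut libraries overlapped. Of all genes tested, 13.6% had both het libraries below both WT libraries, and 16.4% had both UTRmut libraries above both het libraries. The share of genes with both traits was not counted. Mean CPM of Dusp1 was 55.6 ± 7.49 for WT, 42.1 ± 0.991 for het and 60.3 ± 10.7 for UTRmut (SD, n = 2 each). The fitted log2 fold (± SE) was -0.40 ± 0.13 for het against WT, 0.12 ± 0.13 for UTRmut against WT and 0.52 ± 0.13 for UTRmut against het. The span of Dusp1 overlaps 640 bases of Ergic1 on the other strand, and the strand setting of the counting is not given in the sources used here, so reads there cannot be told apart. Counts of Ergic1, a gene of early secretory traffic, were 954 and 1053 in het, 917 and 1181 in WT, and 1037 and 1168 in UTRmut. As these are whole-tissue samples, fewer cells that express a gene and less RNA per cell cannot be told apart for any of the 10 genes.

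For Dusp4, Dusp5 and Dusp6 the het libraries did not lie below all others, as those of Dusp1 did. This depended in part on the WT female. Without that library the log2 fold of het against WT was -0.31 for Dusp4 and for Dusp5. It was -0.06 for Dusp6 and -0.26 for Dusp1 in that fit. Dusp6 (ENSMUSG00000019960, chr10:99263231-99267489, plus strand) was at 118 and 157 CPM in WT, 143 and 159 in het, against 158 and 184 in UTRmut, female first. Both UTRmut libraries of Dusp6 were above both WT libraries, the UTRmut female by less than 1 CPM over the WT male. Its log2 fold was 0.32 ± 0.14 for UTRmut against WT and 0.13 ± 0.14 for het against WT.

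Dusp5 (ENSMUSG00000034765, chr19:53529109-53542431, plus strand) was at 15.8 and 28.7 CPM in WT, 22.4 and 23.9 in het, against 28.1 and 29.2 in UTRmut. Its WT libraries spanned the others except for the UTRmut male, so WT overlapped both mutant groups, while both UTRmut libraries were above both het libraries. The log2 fold was 0.36 ± 0.23 for UTRmut against WT and 0.05 ± 0.24 for het against WT. Dusp4 (ENSMUSG00000031530, chr8:34807297-34819894, plus strand) was at 13.5 and 30.1 CPM in WT, 28.3 and 20.6 in het, against 27.4 and 26.9 in UTRmut. The WT libraries of Dusp4 held both its lowest and its highest value, so all groups overlapped with WT. Its log2 fold was 0.31 ± 0.39 for UTRmut against WT and 0.15 ± 0.40 for het against WT. The WT female was the lowest library for all 3 of these phosphatases.

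Gadd45b and Tiparp were higher in both mutant groups than in WT, library by library. Of all genes tested, 14.0% were higher than WT in this way in UTRmut and 13.4% in het. Gadd45b (ENSMUSG00000015312, chr10:80930073-80932204, plus strand), a small nuclear protein tied to p38 signalling and DNA demethylation, was at 11.6 and 15.7 CPM in WT, 20.3 and 16.9 in het, against 19.3 and 22.3 in UTRmut. Both WT libraries were below the 4 others. The log2 fold of Gadd45b was 0.60 ± 0.17 for UTRmut against WT and 0.44 ± 0.18 for het against WT. Tiparp (ENSMUSG00000034640, chr3:65528410-65555518, plus strand), a mono-ADP-ribosyltransferase induced through the aryl hydrocarbon receptor and by activity, was at 40.6 and 57.4 CPM in WT, 64.3 and 59.5 in het, against 70.5 and 97.6 in UTRmut. The 3 genotypes did not overlap for Tiparp and stood in the order WT, het, UTRmut. Its log2 fold was 0.78 ± 0.20 for UTRmut against WT, 0.33 ± 0.20 for het against WT and 0.44 ± 0.19 for UTRmut against het.

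Atf3 (ENSMUSG00000026628, chr1:191170296-191218039, minus strand) had 6 counts in each WT library, 10 and 9 in the het female and male, and 8 and 18 in the UTRmut female and male. Both mutant groups were above WT, by as few as 2 counts, and the level was 0.548 ± 0.0428 CPM in WT against a floor of 0.259 to 0.312 CPM that 3 counts would give. The log2 fold of Atf3 was 1.07 ± 0.58 for UTRmut against WT and 0.76 ± 0.60 for het against WT. Ier5 (ENSMUSG00000056708, chr1:155096361-155099636, minus strand), an immediate-early regulator of the heat shock factor, was at 76.9 and 121 CPM in WT, 114 and 113 in het, against 121 and 112 in UTRmut. For Ier5, 5 libraries lay between 112 and 121 CPM, and the WT female stood alone below them. Its log2 fold was 0.23 ± 0.19 for UTRmut against WT and 0.19 ± 0.19 for het against WT.

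Ier2 and Btg2 had negative folds in heterozygotes, as Dusp1 did, but their het libraries were not their lowest. Ier2 (ENSMUSG00000053560, chr8:84661331-84662852, minus strand), a nuclear immediate-early protein, was at 11.8 and 7.77 CPM in WT, 6.45 and 6.63 in het, against 6.35 and 13.5 in UTRmut. Both het libraries of Ier2 were below both WT libraries, and the UTRmut libraries held its lowest and its highest value. Its log2 fold was -0.57 ± 0.35 for het against WT and 0.03 ± 0.34 for UTRmut against WT. Btg2 (ENSMUSG00000020423, chr1:134075170-134079120, minus strand), an antiproliferative p53 target that also recruits the mRNA deadenylation machinery, was at 62.3 and 28.7 CPM in WT, 33.2 and 34.9 in het, against 40.3 and 59.0 in UTRmut. The het libraries of Btg2 lay between the 2 WT libraries and below both UTRmut libraries. Its log2 fold was -0.41 ± 0.46 for het against WT, and 0.25 without the WT female, and 0.13 ± 0.45 for UTRmut against WT.

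**Figure D2:**
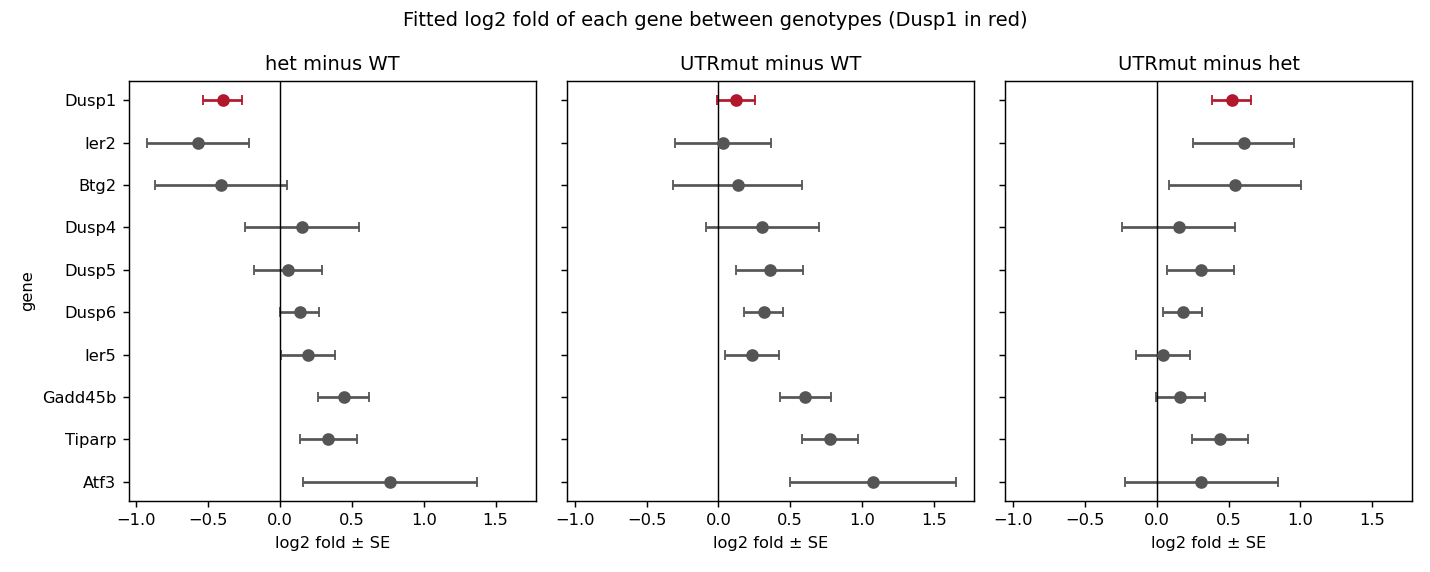
Fitted log2 fold of each gene for 3 pairs of genotypes (horizontal axis), with bars of 1 SE from the edgeR fit and Dusp1 in red. In het against WT, Dusp1 (-0.40), Ier2 (-0.57) and Btg2 (-0.41) lie below 0 and the other 7 genes above it.

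Set side by side, Dusp1 was below most of the others in heterozygotes but not alone. For het against WT its fold of -0.40 compared with a median of 0.15 over the other 9 genes, which ran from -0.57 (Ier2) to 0.76 (Atf3), and 7 of the 9 were above it. For UTRmut against WT its 0.12 compared with a median of 0.32, from 0.03 (Ier2) to 1.07 (Atf3), and 8 of the 9 were above it. For UTRmut against het its 0.52 compared with a median of 0.31, from 0.04 (Ier5) to 0.60 (Ier2), and 2 of the 9 were above it. The het and UTRmut comparisons share the WT libraries, so their values are not independent. Of the 10 genes, 10 had a positive log2 fold in UTRmut against WT (median 0.31) and 7 in het against WT (median 0.14), against 47.9% and 48.9% of all genes tested, with medians of -0.01 and 0.00. In UTRmut against het 10 of the 10 were positive (median 0.31), against 49.7% of all genes. Single libraries moved these counts. In UTRmut against WT 7 genes were positive without the WT female, 8 without the WT male and 7 without the UTRmut male, where Dusp1 was at -0.07. In het against WT 4 were positive without the WT female. Since these folds were among the values that chose the set, nothing is read from the counts.

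None of the 10 genes passed edgeR's quasi-likelihood test at a Benjamini-Hochberg adjusted p under 0.05 in a genotype comparison. The share of all tested genes that passed was 0.00620% for UTRmut against WT, 0.0124% for het against WT and 0.0124% for UTRmut against het. At an unadjusted p under 0.05 there were 3, 2 and 1 of the 10 in the same order, and 2.71%, 2.37% and 2.80% of all genes tested. These tests use the folds that chose the set, so neither these counts nor the calls below support a difference. DESeq2 called Tiparp in UTRmut against WT, where it called 0.0496% of all genes, and none of the 10 in the other comparisons. Without the filter on low counts edgeR called Tiparp in UTRmut against WT (0.0921% of all genes) and Dusp1 and Tiparp in UTRmut against het (0.0955%). With the WT male left out, it called Dusp4, Dusp5, Dusp6, Gadd45b, Ier5 and Tiparp in UTRmut against WT, when 0.739% of all genes passed, and Ier5 in het against WT, when 0.244% did. In that fit the WT female, the lowest library for those 6 genes, is the only WT library and is assumed to vary like the other groups.

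Complete separation of the libraries of 2 genotypes was common among all genes. The shares given here are for pairs of genotypes. The share of all genes with a genotype apart from both others, as for Dusp1 and Gadd45b, was not counted. Nor was the share with all 3 genotypes apart, as for Tiparp. Both UTRmut libraries were above both WT libraries for 4 of the 10 genes (Dusp6, Gadd45b, Atf3 and Tiparp) and for 14.0% of all genes tested, and below them for 0 of the 10 and 14.6% of all. Both het libraries were above both WT libraries for 3 (Gadd45b, Atf3 and Tiparp) and for 13.4% of all, and below them for 2 (Dusp1 and Ier2) and 13.6% of all. Both UTRmut libraries were above both het libraries for 4 (Dusp1, Dusp5, Btg2 and Tiparp) and for 16.4% of all, and below them for 0 of the 10 and 17.9% of all.

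**Figure D3:**
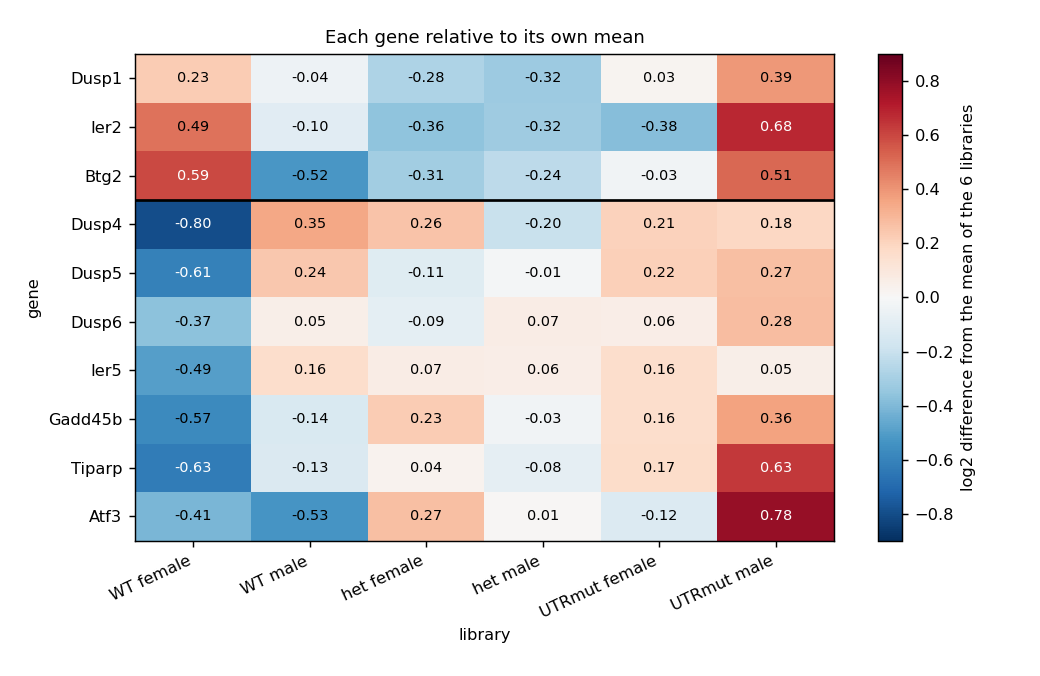
Log2 CPM of each gene in each library minus the gene's mean over the 6 libraries (colour and printed number). The line separates Dusp1, Ier2 and Btg2, which are above their means in the WT female, from the 7 genes that are below theirs there by 0.37 to 0.80.

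The 10 genes fell into 2 groups by their direction in the WT female. Each gene's log2 CPM was set against its own mean over the 6 libraries. In the WT female, Dusp4 (-0.80), Tiparp (-0.63), Dusp5 (-0.61), Gadd45b (-0.57), Ier5 (-0.49), Atf3 (-0.41) and Dusp6 (-0.37) were below their means. In the same library Btg2 (0.59), Ier2 (0.49) and Dusp1 (0.23) were above theirs. In the UTRmut male all 10 genes were above their means, and it was the highest library for 7 of them. In both het libraries Dusp1 (-0.28 in the female and -0.32 in the male), Ier2 (-0.36 and -0.32) and Btg2 (-0.31 and -0.24) were below their means, while the median of the other 7 was 0.07 and -0.01. In the WT male, Dusp1 (-0.04), Ier2 (-0.10) and Btg2 (-0.52) lay within the range of the other 7, -0.53 to 0.35. In the UTRmut female, Dusp1 (0.03) and Btg2 (-0.03) lay within that range (-0.12 to 0.22) and Ier2 (-0.38) below it. A gene's differences from its own mean balance out over the 6 libraries, so those in the WT female and in het are not independent. The split into these 3 and 7 genes was made after the values were seen, so it carries no test.

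**Figure D4:**
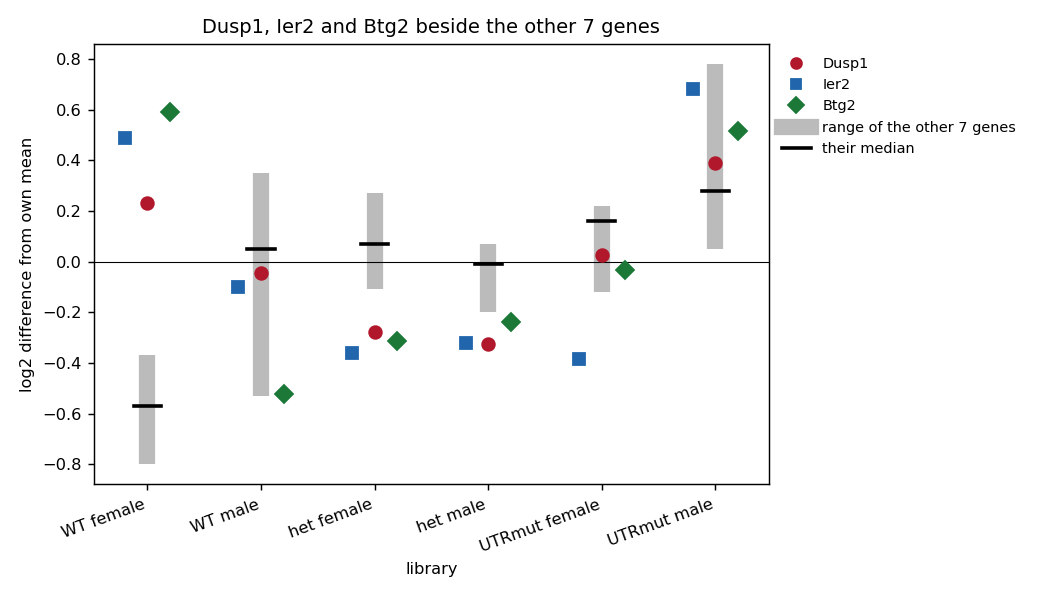
Log2 difference of Dusp1 (circle), Ier2 (square) and Btg2 (diamond) from their own means in each library (horizontal axis), beside the range (grey bar) and median (black line) of the other 7 genes. The 3 symbols stand above the grey bar in the WT female and below it in both het libraries.

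Dusp1 was thus farthest from the rest in 1 WT library. Its difference from own mean, minus the median of the other 9 genes, was 0.72 in the WT female and 0.06 in the WT male. The same quantity was -0.31 in the het female and -0.29 in the het male, and -0.13 and 0.03 in the UTRmut female and male. Against the median of the other 7 genes it was 0.80 in the WT female, -0.10 in the WT male, -0.35 and -0.31 in het, and -0.13 and 0.11 in UTRmut. Against the median of Ier2 and Btg2 it was -0.31, 0.27, 0.06, -0.04, 0.23 and -0.21 in the same order of libraries. The gap between Dusp1 and the median of the other 9 in het against WT was -0.55 on the log2 scale, and it was -0.20 without the WT female and -1.09 without the WT male. Over single libraries, the difference of Dusp1 from the median of the other 9 had an SD of 0.28, pooled within genotypes. Without the WT female, Dusp1 (-0.26) lay above Dusp4 and Dusp5 (both -0.31) and close to Ier2 (-0.25), while Btg2 moved to 0.25. In every one of the 10 alternative fits the het against WT fold of Dusp1 itself stayed negative, from -0.53 to -0.26.

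Over the 6 libraries, Pearson's r of log2 CPM with Dusp1 was 0.88 for Ier2 and 0.82 for Btg2. It was 0.23 for Atf3, 0.22 for Tiparp, 0.08 for Dusp6, -0.01 for Dusp5, -0.07 for Gadd45b, -0.21 for Dusp4 and -0.39 for Ier5. Without the 2 libraries in which Dusp1 was farthest from its median, the UTRmut male and the het male, r over the other 4 was 0.79 for Ier2 and 0.79 for Btg2. For the other 7 genes it moved down, to -0.73 for Atf3, -0.70 for Tiparp, -0.53 for Dusp6, -0.48 for Dusp5, -0.83 for Gadd45b, -0.79 for Dusp4 and -0.70 for Ier5. Those 4 libraries include the WT female, where Dusp1 was above its mean and these 7 genes below theirs. The values of r therefore add nothing separate to the split made above. The points share libraries and depth, and so few libraries leave many genes with a high r: Ier2 ranked 70 and Btg2 195 among 10901 protein-coding genes. The 5 genes most like Dusp1 by r were Fgf14 (0.987), Trappc1 (0.986), Washc5 (0.984), Pex2 (0.982) and Cpne6 (0.977). Their differences from own mean stayed between -0.14 and 0.13, against -0.32 to 0.39 for Dusp1.

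No difference between the sexes passed the test. The log2 fold of females against males, from a model that also held genotype, was negative for 9 of the 10 genes. Its median was -0.19, against 0.00 over all genes tested, of which 49.6% were positive. None passed edgeR's test at an adjusted p under 0.05, as 0.0372% of all genes did, and 2 of the 10 (Dusp6 and Tiparp) had an unadjusted p under 0.05, as 6.99% of all genes did. DESeq2 called none of the 10 either. Dusp6 was at 140 ± 20.6 CPM in females and 167 ± 14.9 in males (SD, n = 3 each), lower in the female of all 3 genotypes, with a log2 fold of -0.26 ± 0.08 and an edgeR adjusted p of 0.574. Tiparp had -0.29 ± 0.12 (edgeR adjusted p = 0.696) and Dusp5 -0.32 ± 0.15 (0.735). Dusp1 had -0.02 ± 0.12 (edgeR adjusted p = 0.980), with 52.1 ± 9.05 CPM in females and 53.2 ± 13.5 in males.

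Within each sex, the genotype differences of some genes had the same sign and those of others did not. Dusp1 was lower in het than in WT in females (-0.51) and in males (-0.28, log2 CPM difference of single libraries), and higher in UTRmut than in het in both (0.30 and 0.71). Tiparp was higher in UTRmut than in WT by 0.79 in females and 0.76 in males, and Gadd45b by 0.73 and 0.50. In het against WT the differences in females and males were 0.66 and 0.05 for Tiparp, and 0.80 and 0.10 for Gadd45b. Dusp6 was higher in UTRmut than in WT by 0.43 and 0.23. For Dusp1, Dusp4, Ier2, Ier5 and Btg2 the difference between UTRmut and WT had opposite signs in the sexes. The difference between het and WT did so for Dusp4, Dusp5, Ier5 and Btg2. That between UTRmut and het did so for Dusp4, Gadd45b, Ier2, Ier5 and Atf3.

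Related genes from lists were examined for the same libraries, and the genes named from a list are its highest and lowest among those with a mean of at least 5 CPM, so genes below that level can lie outside them. Of the 9 other MAP kinase phosphatases, 8 had a positive log2 fold in UTRmut against WT (median 0.17), from Dusp14 (0.30 ± 0.20) to Dusp10 (-0.08 ± 0.22), and 6 in het against WT (median 0.04), from Dusp10 (0.26 ± 0.22) to Dusp8 (-0.09 ± 0.09). The 16 tested MAP kinases and activating kinases, the substrates of these phosphatases and their activators, had medians of 0.02 and -0.05, with Mapk10, which encodes JNK3, at 0.11 ± 0.08 and Map2k5 at -0.22 ± 0.13 in UTRmut against WT and Mapk11 at 0.12 ± 0.13 and Map2k6 at -0.15 ± 0.16 in het against WT. The 11 other feedback inhibitors of growth factor signalling, such as the Sprouty and Spred genes, had medians of 0.06 and 0.03. Their extremes were Spry3 (0.22 ± 0.20) and Sh2b3 (-0.20 ± 0.16) in UTRmut against WT, and Il17rd (0.29 ± 0.27) and Spred3 (-0.06 ± 0.13) in het against WT.

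The 14 tested relatives of the 6 response genes had a median of 0.17 in UTRmut against WT, with 10 positive, among them the stress gene Gadd45g at 0.41 ± 0.30, and Tob2, an antiproliferative relative of Btg2, at -0.28 ± 0.16. In het against WT their median was 0.14, from Gadd45a (0.26 ± 0.29) to Tob2 (-0.38 ± 0.16). The 24 other immediate-early genes had the highest medians, 0.39 in UTRmut against WT with 21 positive and 0.23 in het against WT with 22 positive. Of all genes tested, 47.9% and 48.9% were positive. By library, the median log2 difference of these 24 genes from their own means was -0.42 in the WT female and 0.05 in the WT male. It was 0.04 in each het library, and 0.16 and 0.14 in the UTRmut female and male. Egr2, a zinc finger transcription factor, was at 0.80 ± 0.23 and 0.58 ± 0.24 in these comparisons, while Per1, a clock gene, was at 0.07 ± 0.10 in UTRmut against WT and Csrnp1 at -0.18 ± 0.16 in het against WT.

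The 18 glucocorticoid-induced genes, a class to which Dusp1 also belongs, had medians of -0.04 in UTRmut against WT and -0.17 in het against WT, with 7 positive and 11 negative in the latter, from Cdkn1a (0.40 ± 0.54) to the metallothionein Mt2 (-0.53 ± 0.29). In UTRmut against WT they ran from Pdk4 (0.60 ± 0.29) to Fkbp5 (-0.22 ± 0.19). The 12 tested p53 targets had medians of -0.07 and -0.07, with the cell cycle inhibitor Cdkn1a highest in both comparisons (0.55 ± 0.54 and 0.40 ± 0.54) and Sesn2 (-0.42 ± 0.22) and Trp53inp1 (-0.27 ± 0.15) lowest. The 6 tested aryl hydrocarbon receptor genes had medians of -0.03 and -0.02, with Arnt, the partner of the receptor, lowest at -0.26 ± 0.14 in UTRmut against WT and Ahr, the receptor itself, lowest at -0.13 ± 0.16 in het against WT. The 13 genes of the unfolded protein and integrated stress response had medians of 0.07 and 0.01, with Nupr1 highest (0.33 ± 0.22 and 0.56 ± 0.22) and Sesn2 lowest (-0.42 ± 0.22 and -0.26 ± 0.22). The 12 heat shock genes had medians of 0.03 and 0.01. Dnaja1 (0.16 ± 0.10) and Hspe1 (-0.07 ± 0.14) were their extremes in UTRmut against WT, and Dnajb1 (0.10 ± 0.14) and Hsp90ab1 (-0.06 ± 0.09) in het against WT. Their log2 fold of females against males was negative for 12 of 12 (median -0.15). It was also negative for 19 of the 24 other immediate-early genes (median -0.18) and 11 of the 14 relatives of the response genes (-0.18). Among the p53 targets 6 were negative and 6 positive, and 49.6% of all genes tested were positive. Of the 129 genes tested in these 10 lists, 0 passed edgeR's test in any of the 4 comparisons, and 7 in UTRmut against WT, 12 in het against WT, 2 in UTRmut against het and 9 in females against males had an unadjusted p under 0.05, beside 2.71%, 2.37%, 2.80% and 6.99% of all genes tested. DESeq2 called 1 of them, the immediate-early gene Fos, in UTRmut against WT, where it called 0.0496% of all genes.

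**Figure D5:**
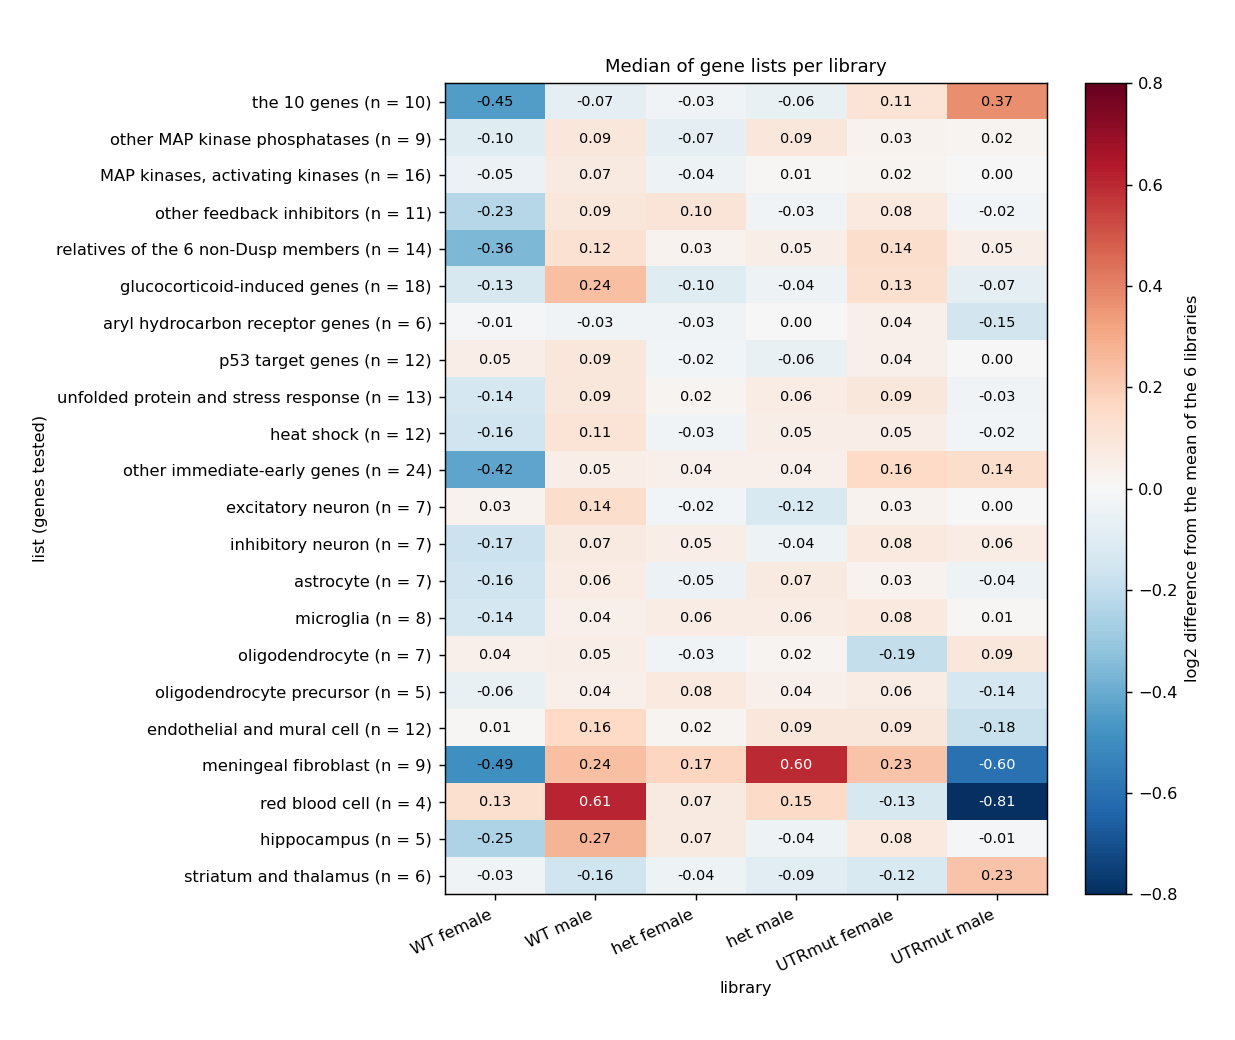
Median over the tested genes of each list of log2 CPM minus the gene's mean over the 6 libraries, by library (colour and printed number). The WT female is low for the other immediate-early genes (-0.42), the relatives of the response genes (-0.36) and the meningeal markers (-0.49). The choroid plexus list is left out because 2 of its 6 genes were tested.

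The libraries that set the patterns of the 10 genes also differed in other measures. In the WT female, where 7 of the 10 genes were low, the median of the 24 other immediate-early genes was -0.42 and that of the 9 tested meningeal fibroblast markers -0.49. Summed meningeal markers were 367 CPM in the WT female and 335 in the UTRmut male, against 462 to 770 in the other 4 libraries, and none of the 10 listed markers was at 0. Summed red blood cell markers were lowest in the UTRmut male, at 96.8 CPM against 150 to 232 elsewhere, with Hba-a2 of the 5 at 0 in every library. Summed excitatory neuron markers were 2550 and 2540 CPM in the het libraries, where Dusp1 was low, and 2590 to 2970 CPM in the other 4. The sum of 2590 CPM was that of the WT female, where Dusp1 was at 60.9 CPM. The part of mitochondrial ribosomal RNA and of neuronal, meningeal and blood markers in the levels of the 10 genes was not tested.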

How the data were processed

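The authors deposited raw read counts per Ensembl gene for 6 visual cortex libraries of total RNA (TruSeq Stranded kit, per the labels' protocols), not normalised. The build GRCm38 and the tools HTSeq 0.6.0, HISAT2, Trimmomatic 0.39 and GATK 4.2.3.0 were used, in unstated roles, per the submitters' processing notes. The strand setting of the counting and the annotation release are not stated in these sources. Total RNA holds unspliced transcripts and leftover ribosomal RNA, which can shift a library's counts.

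Symbols from GENCODE (GRCm38) matched 55227 of 55487 identifiers, and the other 260 held 0.0162% of counts. No per-sample column was left unmapped (0). Genes were kept with filterByExpr by genotype (minimum count 10, minimum total 15), scaled by TMM, and tested in R 4.3.3 with the robust quasi-likelihood F test of edgeR 4.0.16, with Benjamini-Hochberg adjustment over 16119 genes and a threshold of 0.05. Genotype fits used all 6 libraries (3 residual degrees of freedom), and females against males had genotype in the model (2). The SE of a log2 fold is its size over the square root of F. All CPM are TMM-scaled, log2 CPM used a prior count of 2, and RPKM used the union of exons. A floor of 3 counts covers counting error only. The fits were tested on simulated data.

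The 10 genes, the lists and the rule for naming genes were chosen with earlier results of these data known. The rule named all 10 genes, the highest and lowest gene of each list with a mean of at least 5 CPM, and the 5 protein-coding genes with the highest r with Dusp1. A gene that the rule named in 1 list is not reported here. Alternatives were DESeq2 1.42.0, RLE factors, no filter, a replicate block and leaving out each library.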

Additional observations from a re-analysis of the deposited data

Results flagged for a closer look

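For 8 of the 10 genes at least 1 genotype difference had opposite signs in females and males, and for 6 of them this was a difference from WT. Each genotype and sex held 1 library, so the difference between the sexes was not tested, and the values below are log2 CPM differences of single libraries. For UTRmut minus WT, the value in males minus that in females was 0.64 for Dusp1 (-0.21 in females and 0.43 in males), 1.65 for Ier2 (-0.87 and 0.78) and 1.66 for Btg2 (-0.62 and 1.04). It was -1.17 for Dusp4 (1.01 in females and -0.16 in males) and -0.76 for Ier5 (0.65 and -0.11).

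For het minus WT, the value in males minus that in females was -1.61 for Dusp4 (1.06 in females and -0.55 in males), -0.76 for Dusp5 (0.50 and -0.26), -0.67 for Ier5 (0.56 and -0.10) and 1.19 for Btg2 (-0.90 and 0.28). The WT female and the WT male enter every one of these differences from WT. The WT female was the lowest library for Dusp4, Dusp5 and Ier5 and the highest for Btg2.

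For UTRmut minus het, the value in males minus that in females was 0.43 for Dusp4 (-0.05 in females and 0.38 in males), 0.46 for Gadd45b (-0.07 and 0.39), 1.03 for Ier2 (-0.02 and 1.0), -0.09 for Ier5 (0.09 and -0.01) and 1.17 for Atf3 (-0.39 and 0.77). In females the differences of Dusp4, Gadd45b and Ier2 were within 0.07 of 0, and Atf3 had 6 to 18 counts per library.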

How the results depend on the processing

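The number of genes that passed depended on the fit. For UTRmut against WT it was 1, and 8 with DESeq2, 27 without the filter on low counts, 4 with a replicate block (sex), and 2 to 124 with 1 library left out. For het against WT it was 2, and 13 without the filter and 1 to 41 with 1 library left out. For UTRmut against het it was 2, and 7 with DESeq2, 28 without the filter, 5 with the replicate block, and 0 to 12 with 1 library left out. For females against males it was 6, and 10 with DESeq2, 92 without the filter, and 7 to 198 with 1 library left out. The cause was not tested. The gap between Dusp1 and the median of the other 9 genes ranged from -0.86 to -0.09 for UTRmut against WT and from -1.09 to -0.20 for het against WT with 1 library left out. The female against male folds changed sign with 1 library left out for Dusp1 (-0.18 to 0.16), Dusp4 (-0.54 to 0.23), Gadd45b (-0.32 to 0.02), Ier2 (-0.62 to 0.31), Ier5 (-0.32 to 0.06), Btg2 (-0.33 to 0.54) and Atf3 (-0.58 to 0.24). Those of Dusp5, Dusp6 and Tiparp stayed negative. A left-out library leaves its group with 1 library, assumed to vary like the other groups. Replicate numbers equal sex and name no shared litter or day. Same-numbered libraries deviated together with r of 0.29 (WT and het), 0.08 (WT and UTRmut) and 0.20 (het and UTRmut), and the replicate block called none of the 10 genes. Depth limits Atf3 most, at 6 to 18 counts per library.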
